A study of Oryza sativa Japonica Group with 15 samples.

Results

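The comparison set unicellular zygotes of rice against unfertilized egg cells, by single-cell Hi-C. It used 7 of the 15 cells of the series, chosen by their labels: 3 zygotes isolated from florets 6 to 8 h after pollination, and 4 egg cells from florets that had not been pollinated. All cells came from the japonica cultivar Dongjin, grown from seed in a greenhouse or paddy field, and the labels name no gene edit or treatment. Every library is a single cell. The labels do not say which cells share a plant or floret, so a group is treated as 1 sample and differences are described without a test. The 4 sperm cells, from stamens, and the 4 shoot cells, from 12-day-old seedlings, served as context only.

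Fertilization joins a haploid egg with a haploid sperm cell, and the zygote nucleus then holds a maternal and a paternal set of chromosomes. Hi-C ligates DNA that was neighbouring in the fixed nucleus, so that each ligated pair reports 1 contact. A trans contact joins different chromosomes and a cis contact joins places on the same one. In plant nuclei the heterochromatin around centromeres often gathers apart from the gene-rich arms, and both parts can be followed through their trans contacts. The comparison asks which features of the egg genome are found again in the zygote a few hours after pollination.

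Each distinct fragment pair of a cell was counted as 1 contact. Trans contacts, and cis contacts of 20 kb or more, were called far. The zygotes gave 222, 401 and 332 far contacts (zygotes 1, 2 and 3), against 543, 528, 558 and 401 in eggs 1 to 4. These came from 3559, 4319 and 3584 read pairs in zygotes, against 8260, 4627, 11887 and 5931 in eggs. Every zygote thus had fewer read pairs than every egg, and depth and cell type cannot be told apart. Counts of loci were therefore computed as exact expectations with each cell thinned to 222 far contacts, the number in zygote 1. Intervals in the text are exact 95% intervals that cover counting error only. Limits for a count of 0 are not such intervals. They set 3 contacts against the far contacts of the cell, where the exact interval reaches 3.69 contacts.

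Egg 3 stood apart from the other 6 cells in nearly every measure of which loci were contacted, and results are given with and without it. Contacts of the other 6 cells gathered at a small set of recurring places. These were 95 bins of 10 kb that 5 or more of the 15 cells contacted by far contacts, and they lay at 66 loci once bins within 50 kb were joined. The zygotes had 64.4%, 57.0% and 71.6% of their trans contacts with an end in such a bin, against 53.0%, 52.6%, 2.16% and 78.3% in eggs 1 to 4. Only egg 3 lay far from the rest. The zygote mean was 64.3% ± 7.28 (SD, n = 3 cells). The egg mean was 46.5% ± 31.9 (SD, n = 4), or 61.3% ± 14.7 (SD, n = 3) without egg 3. Both ends lay in a recurring bin in 26.7%, 20.8% and 31.3% of trans contacts in zygotes, against 24.1%, 17.2%, 0.866% and 42.5% in eggs. The groups overlapped in both measures.

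**Figure D1:**
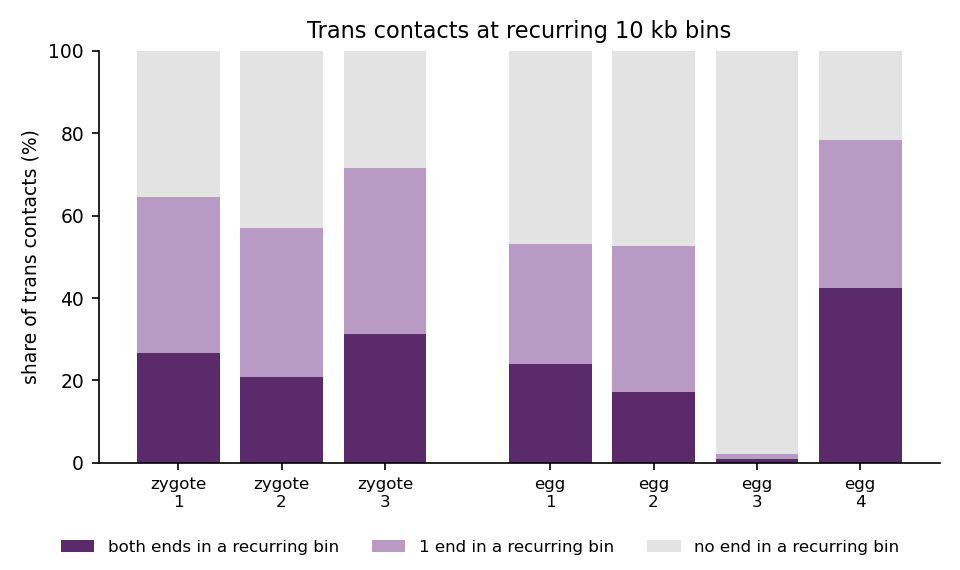
Share of trans contacts (%, vertical axis) in each zygote and egg by how many ends lay in a recurring 10 kb bin. Bars are single cells and have no error; egg 3 is the one cell with few such contacts (2.16% with at least 1 end), against 52.6% to 78.3% in the other 6.

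Since those bins were defined with the zygotes and eggs included, a list was also drawn from the other 8 cells alone. It holds 49 bins that 3 or more of the 8 sperm and shoot cells contacted, of which 47 are also among the 95. The zygotes had 41.4%, 40.4% and 44.9% of their far contacts at these bins, against 41.4%, 29.2%, 0.896% and 66.3% in eggs 1 to 4. The 3 zygotes lay close together and inside the range of the eggs. In the cells that defined this list the share was 3.22% to 39.2% in sperm and 4.18% to 26.9% in shoot cells, so all 3 zygotes lay above all 8 of them. Low shares were found in sperm 3 (3.22%) and shoot cell 3 (4.18%) as well as in egg 3.

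Most loci that recurred among zygotes were also contacted in eggs. At full depth 94 of 37272 bins (0.252%) had far contacts in at least 2 zygotes, and 84 of the 94 (89.4%) had one in at least 1 egg. Of the same 94, 79 (84.0%) had one in at least 1 sperm or shoot cell. Among all bins, 1099 (2.95%) had a far contact in at least 1 egg and 2067 (5.55%) in at least 1 of the 8 sperm and shoot cells. In at least 3 of the 4 eggs 66 bins (0.177%) were contacted, and 60 of the 66 (90.9%) were contacted in at least 1 zygote, while 57 (86.4%) were contacted in a sperm or shoot cell. The lists shared 51 bins, 54.3% of the zygote list and 77.3% of the egg list. At equal depth the expected numbers were 79.2 bins in at least 2 zygotes, 36.6 in at least 3 eggs and 30.9 in both. Because egg 3 holds few of these places, the egg number rests on eggs 1, 2 and 4: without any 1 of them it was 1.65 to 3.22. With egg 3 set aside and bins counted alike in both groups, 84.8 were expected in at least 2 of eggs 1, 2 and 4, beside the 79.2 of the zygotes. At full depth there were 129 such egg bins (0.346%), and 73 of them were among the 94 of the zygotes.

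At equal depth, pairs of a zygote with an egg other than egg 3 shared numbers of bins that overlapped those of pairs within a group. The 3 pairs of zygotes shared 44.9, 47.0 and 59.9 bins. The 9 pairs of a zygote with egg 1, 2 or 4 shared 39.4 to 62.6 bins, with a mean of 50.1. The 3 pairs among eggs 1, 2 and 4 shared 43.2 to 59.6, with a mean of 51.3, and the mean over zygote pairs was 50.6. Egg 3 shared 2.58 to 4.49 bins with the zygotes and 2.70 to 5.15 with the other eggs. With it, the means were 38.5 over 12 zygote to egg pairs and 27.6 over 6 egg pairs. With egg 3 kept, the zygote to egg mean of 38.5 was above the mean with sperm, 16.6 (3.40 to 27.9 over 9 pairs). It was also above the mean with shoot cells, 22.4 (6.50 to 38.2 over 12 pairs). Those means likewise keep sperm 3 and shoot cell 3, which gave the lowest values, 3.40 and 6.50. No mean without these cells was computed to set beside the 50.1. Shoot cell 2 shared 33.3 to 38.2 bins with the zygotes, close to the lowest pair with egg 1, 2 or 4 (39.4). Sperm 4, with 130 far contacts, was too shallow for this comparison.

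**Figure D2:**
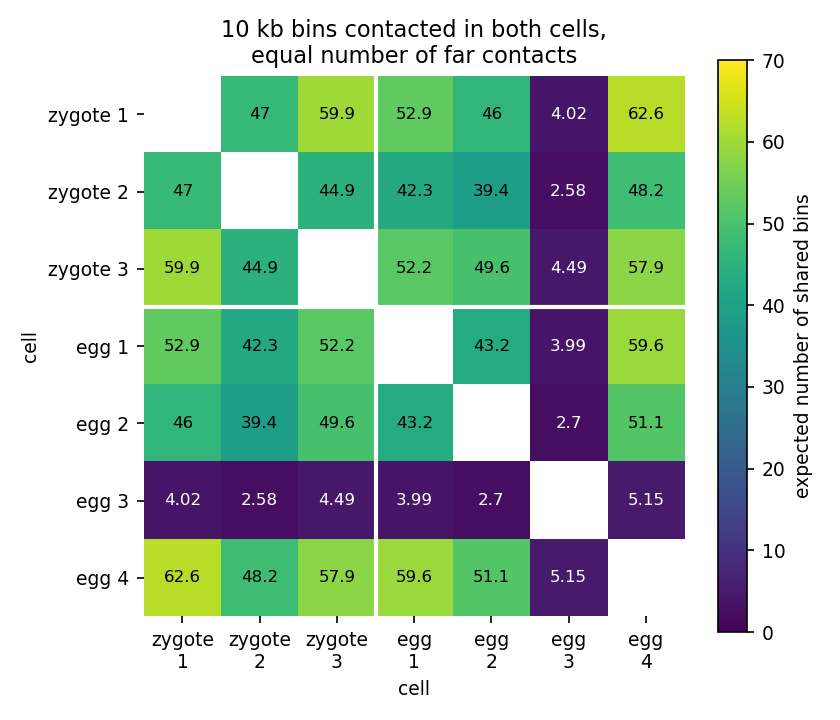
Number of 10 kb bins with far contacts in both cells of a pair (colour and printed value), expected at 222 far contacts per cell, for zygotes and eggs on both axes. The 6 cells other than egg 3 share between 39.4 and 62.6 bins in every pair, within and across the groups; egg 3 shares 2.58 to 5.15.

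Read per zygote, the share of its contacted bins that any egg also contacted was 42.1%, 29.8% and 51.7% at equal depth (zygotes 1 to 3). The same share was 23.5%, 17.0% and 26.2% for 3 sperm cells and 29.8%, 24.9% and 37.8% for 4 shoot cells. In each zygote the order was eggs, then shoot cells, then sperm, though the groups differ in number of cells. Compared 1 cell at a time, a single egg held on average 22.2%, 16.1% and 26.7% of the bins of zygotes 1, 2 and 3, and a single sperm cell 9.85%, 7.16% and 10.9%.

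Of the 66 recurring loci, 62 were contacted in some zygote, 63 in some egg and 59 in both. The loci were chosen with the zygotes and eggs included, and some had no far contact in any sperm or shoot cell. This overlap was thus in part fixed in advance and does not measure how far the groups share loci. At equal depth the zygotes contacted 43.0, 34.99 and 39.6 of them, against 36.6, 36.3, 5.06 and 47.1 in eggs 1 to 4. Chromosome 12 held 30 of the 95 bins (31.6%), chromosome 1 held 16 and chromosome 9 held 9. Within 2 Mb of a centromere lay 20 bins (21.1%), where 12.88% of the genome lies. These shares count bins, and bins of 1 locus are not separate places. On chromosome 12, 1 locus held 9 of the bins and a pericentromeric one held 7. On chromosome 9, 1 pericentromeric locus held 4. Positions are given on the build of the deposited files, which no source names, and genes at these loci were not analysed here.

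The busiest locus spans 20.47 to 20.57 Mb on chromosome 12, on the long arm. It and the next locus are described because they held the most far contacts of the 7 cells, a choice made after their values were seen. It took 32, 56 and 42 far contacts in zygotes 1 to 3, or 14.4%, 14.0% and 12.7% of the cell. In eggs 1 to 4 it took 86, 121, 1 and 35, or 15.8%, 22.9%, 0.179% and 8.73%. The zygotes lay within the range of the eggs. Its core, from 20.50 to 20.57 Mb, had contacts in 6 of the 7 cells and nearly none in sperm. The core held 31, 50 and 35 far contacts in zygotes and 81, 119, 0 and 28 in eggs. Sperm 1 to 4 had 0, 1, 0 and 0 there, where a count of 0 allows up to 0.769% in sperm 1, 0.965% in sperm 3 and 2.31% in sperm 4. Shoot cells had 5, 14, 2 and 2. This core was set against sperm after its values were seen.

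A pericentromeric locus of chromosome 12, from 13.34 to 13.42 Mb, was the next busiest and was found in all groups. It took 28, 61 and 47 far contacts in zygotes, or 12.6%, 15.2% and 14.2% of the cell. In eggs it took 56, 38, 1 and 128, or 10.3%, 7.20%, 0.179% and 31.9%. Sperm 1 to 4 had 11, 15, 1 and 24, and shoot cells 28, 31, 4 and 13. Without egg 3, egg 4 was highest and egg 2 lowest of the 6 remaining cells.

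Bins contacted in all 7 cells, egg 3 included, numbered 6 of 37272 (0.0161%) and formed 5 loci. The locus of 20.62 to 20.67 Mb on chromosome 12 had 29, 6 and 15 far contacts in zygotes and 37, 18, 2 and 25 in eggs. On chromosome 4, on the long arm at 32.88 Mb, zygotes had 4, 28 and 12 and eggs 18, 8, 1 and 23. On chromosome 12 at 13.39 Mb, within the pericentromeric locus above, zygotes had 9, 12 and 8 and eggs 11, 2, 1 and 32. At these 3 loci every cell but egg 3 had at least 2 contacts, and the groups overlapped. The remaining loci had fewer contacts. The bin at 14.53 Mb on chromosome 10 had 5, 4 and 3 in zygotes and 4, 1, 1 and 13 in eggs. The bin at 4.69 Mb on chromosome 9, pericentromeric, had 1, 2 and 10 in zygotes and 2, 1, 1 and 6 in eggs.

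A further 33 bins were contacted in every cell except egg 3. This class was added after egg 3 was seen to stand apart. Its largest loci beside those described lie at 4.70 to 4.73 Mb on chromosome 9 and at 33.53 to 33.59 Mb on chromosome 1. The locus on chromosome 9 took 8, 17 and 38 far contacts in zygotes and 30, 28, 0 and 11 in eggs. The locus on chromosome 1 took 8, 10 and 23 in zygotes and 31, 10, 0 and 19 in eggs. Others were at 8.53 Mb on chromosome 12 (7, 12 and 7 in zygotes; 30, 8, 0 and 18 in eggs) and 39.11 Mb on chromosome 1 (4, 11 and 16 in zygotes; 13, 15, 0 and 14 in eggs). The bin at 13.64 Mb on chromosome 3 had 4, 1 and 5 in zygotes and 7, 5, 0 and 17 in eggs. Where egg 3 had no contact, a count of 0 allows up to 0.538% of its far contacts. All of these ranges overlapped.

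Few loci separated the groups. Among the 66 recurring loci, 1 (1.52%) had a higher share of far contacts in every zygote than in every egg, and 0 (0%) had a lower share in every zygote. That locus is 1 bin at 31.81 Mb on chromosome 3, with 2, 2 and 2 far contacts in zygotes and 0 in each egg. The zygote shares were 0.901%, 0.499% and 0.602%. A count of 0 allows up to 0.552%, 0.568%, 0.538% and 0.748% in eggs 1 to 4, in each case above the share of zygote 2. The bin had 1 contact each in sperm 3 and shoot cell 1 as well, so it was contacted in exactly 5 cells and reached the list of recurring bins only through the zygotes. Of all bins, 2 (0.00537%) were contacted in every zygote and no egg. The other one, at 8.16 Mb on chromosome 1, had 1 contact in each zygote. No bin was contacted in all 4 eggs and no zygote.

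Setting egg 3 aside, a choice made after its values were seen, 4 of the 66 loci (6.06%) had a lower share in every zygote than in eggs 1, 2 and 4. The same 1 locus (1.52%) had a higher share in every zygote. The 4 loci are named here outside the rule for named loci. The pericentromeric bin at 18.68 Mb on chromosome 1 had 2, 2 and 2 far contacts in zygotes and 9, 6 and 18 in eggs 1, 2 and 4. The other loci had none in the zygotes. On chromosome 3 at 33.24 Mb eggs 1, 2 and 4 had 4, 5 and 5 contacts, and at 11.66 Mb they had 8, 1 and 3. On chromosome 6 at 16.82 Mb they had 5, 1 and 6. These 3 loci were contacted in 5 or 6 of the 15 cells, eggs 1, 2 and 4 among them, and so reached the list of recurring bins only through the eggs. A count of 0 allows up to 1.35%, 0.748% and 0.904% in zygotes 1 to 3. Egg 2 had 0.189% at 11.66 Mb and at 16.82 Mb, below each of these limits. At 33.24 Mb the eggs had 0.737%, 0.947% and 1.25%, all below the limit of zygote 1, and egg 1 was below all 3 limits. At this depth a difference was thus not detectable between those cells. Egg 1 at 11.66 Mb (1.473%) and egg 4 at 16.82 Mb (1.496%) lay above all 3 limits. At 33.24 Mb eggs 2 and 4, and at 16.82 Mb egg 1, lay above the limits of zygotes 2 and 3. The exact interval for a count of 0 reaches higher than these limits, and the egg shares carry counting error too. Such excesses over single zygotes thus do not show a difference. Pooled over the zygotes, a count of 0 allows up to 0.314%. This was below all 3 egg shares at 33.24 Mb but above egg 2 at 11.66 and 16.82 Mb. Since these loci reached the list only through the eggs, such excesses were in part fixed in advance.

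Most pairs of bins that recurred in at least 3 cells joined these loci to one another. Over pairs of 100 kb bins, 153 were contacted in at least 2 of the 7 cells, and 131 of them were trans. Of the 153, 111 occurred in a zygote and an egg, 47 in at least 2 zygotes and 86 in at least 2 eggs. Only 5 involved egg 3. The 111 made up 18.0% of all pairs seen in zygotes and 8.40% of those seen in eggs. Of 72 pairs in at least 3 cells, 62 had a recurring bin at both ends. When contacts at recurring bins were left out, 10 pairs recurred in at least 2 cells and 3 of them linked a zygote and an egg. The recurring bins were themselves chosen with these 7 cells included. The overlap and the drop were thus in part fixed in advance.

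The pairs found in most cells occurred in 6 of the 7, each time without egg 3, and all 6 have an end on chromosome 12. The cis pair of 13.3 and 20.5 Mb on chromosome 12 had 3, 5 and 4 contacts in zygotes and 5, 4 and 3 in eggs 1, 2 and 4. It had none in sperm and 1, 4, 1 and 1 in shoot cells. The pair of 33.5 Mb on chromosome 1 with 20.5 Mb on chromosome 12 had 1, 1 and 6 contacts in zygotes and 5, 3 and 1 in those eggs. The pair of 39.1 Mb on chromosome 1 with 13.4 Mb on chromosome 12 had 1, 1 and 2 in zygotes and 4, 2 and 4 in those eggs. The remaining ones joined chromosome 12 near 13 Mb to 14.5 Mb on chromosome 10, to 33.5 Mb on chromosome 1 and to 32.8 Mb on chromosome 4. They had 3 to 7 contacts over the zygotes and 3 to 4 over the eggs.

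The recurrence went down to single restriction fragments. Of 2778 far fragment pairs in the 7 cells, 139 (5.004%) occurred in at least 2 cells, and 125 of the 139 were trans. The same pair of fragments was found in a zygote and an egg in 91 cases, and 3 of the 139 involved egg 3. The most cells that held the same pair were 6, and 7 pairs were seen in at least 5 cells. In 105 of the 139 (75.5%) the same strand combination led in each cell, while each of the 4 combinations made up 22.8% to 26.9% of far read pairs overall. Exactly equal read positions at both ends were found 8 times over the 21 pairs of cells. How such identical pairs arose was not tested.

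Each cell also had single fragments that were counted with many far partners. A fragment has a pair of ends, and each end can be ligated once per DNA copy. Fragments with more than 4 far partners numbered 7, 34 and 20 in zygotes and 48, 36, 30 and 27 in eggs 1 to 4. They took part in 34.2%, 56.9% and 48.2% of far contacts in zygotes, against 57.5%, 50.6%, 53.8% and 39.9% in eggs. Of these fragments 2, 17 and 8 lay in recurring bins in zygotes, against 14, 15, 0 and 20 in eggs. The most partners of 1 fragment were 23, 24 and 36 in zygotes and 21, 40, 53 and 11 in eggs. The groups overlapped in the share, and both had fragments beyond the 4 partners. Such partner numbers exceed 1 ligation per end and DNA copy, so not all of these contacts can be separate ligations. How they arose was not tested. The cut-off of 4 was the same in both groups. The egg is haploid, while the zygote holds a maternal and a paternal set, so it is not the same limit per DNA copy.

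The busiest bin outside the recurring ones lay elsewhere in every cell and had 0 trans contacts in the other 6. These bins were looked up after the data were seen. In zygote 1 a bin at 16.08 Mb on chromosome 2 took 37 trans contacts (20.6% of the cell) from 2 fragments, with partners on 7 chromosomes. In zygote 2 a bin at 35.11 Mb on chromosome 2 took 41 (12.0%) from 2 fragments, with partners on 10 chromosomes. In zygote 3 a bin at 9.46 Mb on chromosome 11 took 21 (7.55%) from 2 fragments. In egg 1 a bin at 13.40 Mb on chromosome 5 took 23 (5.12%) from 4 fragments. In egg 4 a bin at 2.07 Mb on chromosome 3 took 8 (2.52%) from 1 fragment. The largest numbers lay on chromosome 6: 57 (12.8%) at 9.25 Mb in egg 2 and 77 (16.67%) at 17.11 Mb in egg 3. They came from 2 fragments in egg 2 and 7 in egg 3, so these too cannot all be separate ligations. Both groups had cells in which such a bin took over 10% of the trans contacts.

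The trans share of all contacts overlapped between the groups. It was 19.0%, 26.8% and 35.4% in zygotes, against 22.1%, 34.0%, 10.1% and 23.0% in eggs 1 to 4. The zygote mean was 27.1% ± 8.22 (SD, n = 3). The egg mean was 22.3% ± 9.77 (SD, n = 4), or 26.4% ± 6.63 (SD, n = 3) without egg 3. The ranges overlapped. Without contacts at recurring bins the share was 8.61%, 15.0% and 17.3% in zygotes and 13.7%, 22.0%, 9.98% and 8.00% in eggs. The mean was then 13.64% in zygotes and 13.42% in eggs. Among far contacts the trans share was 81.1%, 85.3% and 83.7% in zygotes and 82.7%, 84.7%, 82.8% and 79.3% in eggs.

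The share of trans ends in pericentromeres, the stretches within 2 Mb of the centromeres, overlapped between the groups. The zygotes had 18.6%, 17.7% and 24.6% of their trans ends there, against 18.6%, 12.6%, 20.9% and 32.4% in eggs 1 to 4. Egg 4 was highest and egg 2 lowest. Without recurring bins the share was 10.9%, 10.2% and 11.4% in zygotes and 9.95%, 8.96%, 21.0% and 15.2% in eggs. The mean share was 20.3% in zygotes and 21.1% in eggs, but 3.28% and 3.91% with a window of 1 Mb. On average, most of these ends thus lay between 1 and 2 Mb from the assumed centromere positions.

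Contacts between pericentromeres of different chromosomes were compared with the number given by random pairing of the same ends. Zygotes had 4, 5 and 12 such contacts, or 0.684, 0.524 and 0.906 times the expected number. Eggs 1 to 4 had 10, 7, 19 and 29, or 0.674, 1.07, 1.10 and 1.03 times. All 3 zygotes lay below 1, as did egg 1, and the ranges overlapped. The side of 1 depended on the setting. The mean was 0.705 in zygotes and 0.970 in eggs. It was 1.29 in zygotes and 3.23 in eggs with a window of 1 Mb, 1.31 in zygotes and 1.16 in eggs without recurring bins, and 1.60 in zygotes and 2.56 in eggs with expected numbers taken from length. Pooled over cells, zygotes had 21 contacts against 28.6 expected, a ratio of 0.733 with an interval of 0.454 to 1.12. Eggs had 65 against 66.7, a ratio of 0.974 with an interval of 0.752 to 1.24. Without egg 3 the egg ratio was 0.929, with an interval of 0.680 to 1.24. Once recurring bins were left out, 3 such contacts remained in zygotes and 24 in eggs, 19 of them in egg 3. At this depth a difference between the groups was not detectable.

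Contacts between arms stood at 0.984, 0.980 and 0.992 times the expected number in zygotes, against 0.984, 1.00, 1.01 and 1.01 in eggs. Contacts of a pericentromere with an arm stood at 1.07, 1.09 and 1.02 in zygotes, against 1.07, 0.991, 0.977 and 0.988 in eggs. These ranges overlapped through egg 1. The 3 classes are tied together, since a deficit in one is an excess in another.

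**Figure D3:**
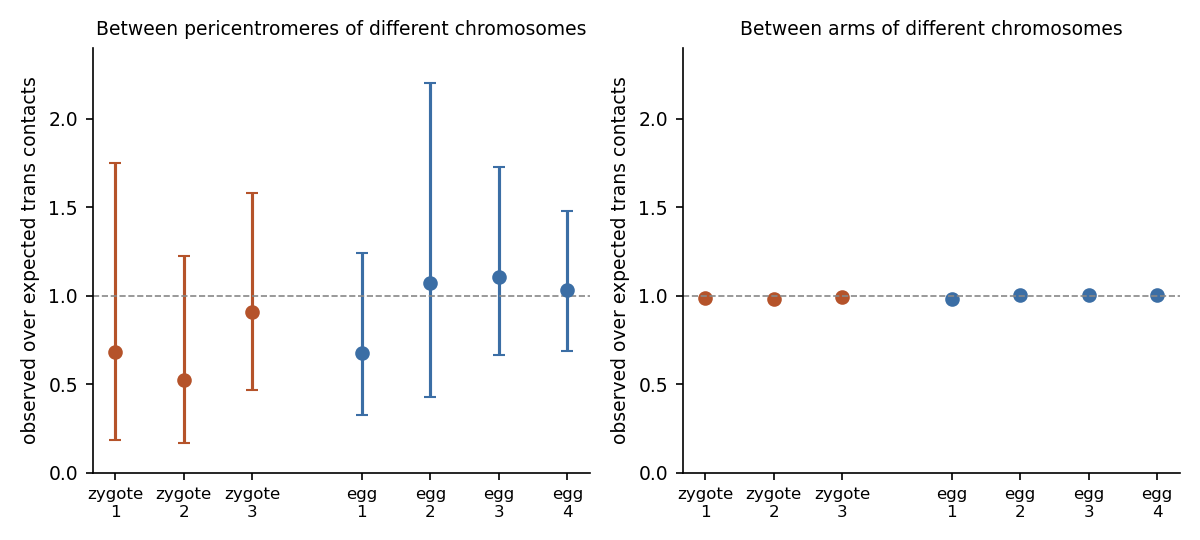
Observed over expected trans contacts (vertical axes) between pericentromeres (left) and between arms (right) in each zygote and egg. Points are cells, bars on the left are exact 95% Poisson intervals, and the dashed line marks random pairing; zygotes lie at 0.524 to 0.906 on the left, within intervals that all include 1.

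Chromosome 6 held a smaller share of trans contact ends in every zygote than in every egg. Of the 12 chromosomes, 1 (8.33%) had a lower share of trans ends in every zygote than in every egg, and 0 (0%) had a higher one. Chromosome 6 held 2.78%, 4.82% and 3.24% of trans ends in zygotes, against 8.69%, 9.17%, 18.9% and 5.03% in eggs 1 to 4. It makes up 8.38% of the genome, so the zygotes and egg 4 lay below that share. Much of the egg share came from single stretches of 1 Mb: 62 of 82 ends in egg 2 lay at 9 Mb and 93 of 175 in egg 3 at 17 Mb. With the busiest 1 Mb stretch of each cell left out, the share was 1.96%, 4.12% and 2.36% in zygotes and 6.50%, 2.404%, 9.87% and 3.97% in eggs. The groups then overlapped, as they also did without recurring bins (3.91%, 4.42% and 5.70% in zygotes; 13.3%, 9.91%, 19.2% and 3.62% in eggs). Chromosome 12, at 7.38% of the genome, held 20.7% ± 3.97 of trans ends in zygotes and 19.1% ± 6.75 in eggs (SD, n = 3 and 4).

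Among the 66 pairs of chromosomes, 2 (3.03%) were above the eggs in every zygote and 1 (1.52%) was below. Chromosomes 2 and 4 met 0.937, 0.971 and 2.07 times the expected number in zygotes, against 0.645, 0.377, 0.536 and 0.702 in eggs. That rested on 20 contacts in zygotes and 9 in eggs. Chromosomes 3 and 6 stood at 1.48, 1.40 and 1.36 in zygotes, against 1.31, 0.802, 1.27 and 0.693 in eggs, with 5 contacts over all zygotes. Chromosomes 5 and 8 had 1 contact over the zygotes where 2.47 were expected, and 12 in eggs where 10.1 were expected. Leaving out 1 cell at a time changed the number of pairs that were apart to between 3 and 11. Without recurring bins 1 pair was above and 2 were below. The means of chromosomes 3 and 6 were then close, at 1.51 in zygotes and 1.42 in eggs. They were 1.37 and 0.517 for chromosomes 2 and 4, and 0 and 0.940 for 5 and 8.

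Of the 66 pairs, 1 was above 1 in all 7 cells and 4 were below 1 in all 7. Chromosomes 4 and 11 were above 1 in each, with a mean of 1.39 ± 0.341 in zygotes and 1.83 ± 0.486 in eggs (SD, n = 3 and 4). Below 1 in each were chromosomes 1 and 11 (0.740 in zygotes and 0.695 in eggs) and 5 and 12 (0.591 and 0.700). Chromosomes 6 and 10 (0.129 in zygotes and 0.585 in eggs) and 10 and 11 (0.526 and 0.338) were below 1 too. They rested on 1 and 3 contacts in zygotes and 16 and 5 in eggs, and some cells had 0. Without recurring bins the egg mean rose to 1.06 for chromosomes 1 and 11 and to 1.05 for 6 and 10. Their zygote means, and both means of the other pairs, stayed on the same side of 1.

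Within chromosomes, the separations overlapped between the groups. Contacts over 2 Mb made up 45.2%, 69.5% and 70.4% of far cis contacts in zygotes, against 61.7%, 46.9%, 70.8% and 60.2% in eggs 1 to 4. The median separation of far cis contacts was 0.981, 5.56 and 7.18 Mb in zygotes and 4.46, 1.52, 5.69 and 4.86 Mb in eggs. Zygote 1 and egg 2 had the shortest contacts of their groups. Between 200 kb and 2 Mb lay 21.4%, 6.78% and 5.56% in zygotes and 13.8%, 27.2%, 14.6% and 22.9% in eggs. Zygotes 2 and 3 were below all eggs here, and zygote 1 was not. The decay slope is the exponent with which contact density falls with separation from 100 kb to 5 Mb. It was -1.05, -0.251 and -0.920 in zygotes and -0.707, -0.989, -0.258 and -0.760 in eggs, from 12 to 39 contacts per cell.

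The share of long cis contacts that cross the centromere was lower in every zygote than in every egg. Of the cis contacts over 2 Mb, 9 of 19, 13 of 41 and 16 of 38 joined the arms on both sides of the centromere in zygotes 1 to 3, or 47.4%, 31.7% and 42.1%. In eggs 1 to 4 it was 33 of 58, 21 of 38, 40 of 68 and 25 of 50, or 56.9%, 55.3%, 58.8% and 50%. Every zygote lay below every egg, with egg 3 or without. The zygote mean was 40.4% ± 7.97 (SD, n = 3), against an egg mean of 55.2% ± 3.79 (SD, n = 4). Pooled, the share was 38.8% (exact interval 29.1% to 49.2%) in zygotes and 55.6% (48.7% to 62.4%) in eggs. These intervals treat contacts as independent and do not compare the groups, since contacts gathered at few loci. On chromosome 12, the pair of 13.3 and 20.5 Mb, on 1 arm, held 12 of 98 contacts in zygotes and 12 of 214 in eggs. Across the centromere, 8.5 Mb met 20.5 Mb 2 times in zygotes and 10 in eggs, and met 20.6 Mb 1 time and 11. Sperm pooled to 36.3% (26.4% to 47.0%) and shoot cells to 43.4% (35.1% to 51.9%).

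The gap depended on which contacts were kept. Without recurring bins, zygotes had 4 of 10, 8 of 23 and 6 of 7, and eggs had 10 of 14, 11 of 22, 32 of 60 and 5 of 7. The groups overlapped there, and the pooled shares were 45.0% in zygotes and 56.3% in eggs. Without fragments of more than 4 partners the shares were 40%, 39.1% and 33.3% in zygotes and 44.4%, 58.1%, 46.2% and 45.5% in eggs, again apart. Without isolated contacts they were 44.4%, 16.0% and 16.67% in zygotes and 59.6%, 62.5%, 67.4% and 44.4% in eggs, where zygote 1 and egg 4 met. This measure was chosen after its values were seen. Of 27 shares, ratios and medians compared per cell, 2 (7.41%) had zygotes and eggs apart. The other was the share of trans contacts with 1 end in a recurring bin, at 37.8%, 36.3% and 40.3% in zygotes and 29.0%, 35.3%, 1.30% and 35.8% in eggs, where zygote 2 and egg 4 nearly touched.

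**Figure D4:**
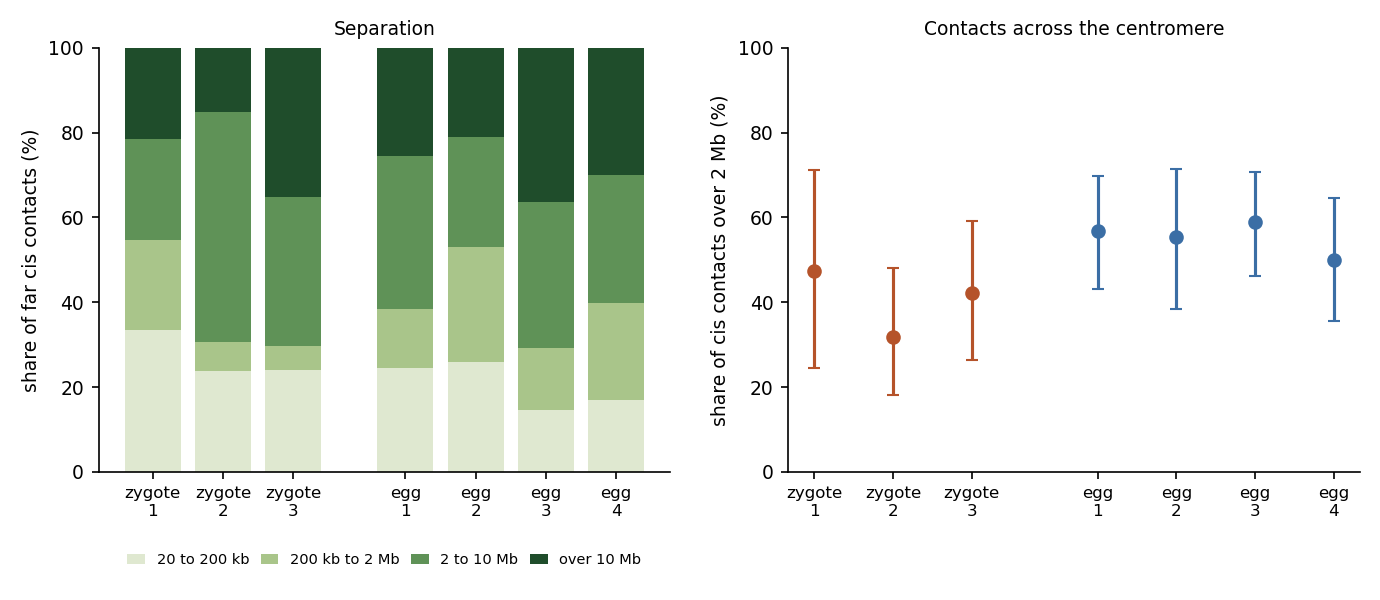
Left, far cis contacts of each cell by separation (stacked shares, %). Right, share of cis contacts over 2 Mb that cross the centromere (%), with points for cells and exact 95% binomial intervals; zygotes lie at 31.7% to 47.4% and eggs at 50% to 58.8%.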

How the data were processed

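Single cells were fixed, digested with DpnII, ligated and amplified as whole genomes, per the labels' protocols. The authors deposited 1 file of other values per cell, in which each line gives chromosome, read position, restriction fragment and strand for both ends of a read pair. The mapping tools are not stated, and the build was not given in the sources used here. There are no molecular identifiers. Read pairs were reduced to distinct fragment pairs, placed at fragment midpoints. Expected trans numbers were fitted from the ends of each cell so that each chromosome kept its total. Centromere positions are those generally known for rice, and how well they match the build was not tested. Thinning was computed as a hypergeometric expectation; shares of contacts keep their expected value under it. The decay slope came from Poisson regression over 6 logarithmic classes. The thinning and the count of bins in several cells were tested on simulated data. The fitted expectation was checked only for keeping the chromosome totals, and the other measures were not tested in this way. Loci named in the text are bins contacted in all 7 cells, in all zygotes and no egg, or in all eggs and no zygote (up to 8 each by contacts), chromosome pairs with groups apart or on one side of 1 in all cells, and up to 6 bin pairs found in most cells; other loci were named after their values were seen. The cells, lists and measures were chosen with earlier results of these data known. Python 3.11.15, numpy 2.4.6, pandas 2.3.3, scipy 1.17.1 and statsmodels 0.14.6 were used. Alternatives left out isolated contacts, contacts with 1 read pair, fragments with more than 4 partners, recurring bins or single cells, merged contacts per 10 kb bin pair, or changed bin sizes, window and expectation.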

Additional observations from a re-analysis of the deposited data

Results flagged for a closer look

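In 24 checks of the eggs for a cell far from the other 3, 2 cells were picked out, and chance picks about 1 in 20. The ratio of observed to expected contacts of pericentromeres with arms was 1.07 in egg 1, against 0.991 in the next egg. The share of far contacts at the bin at 4.69 Mb on chromosome 9 was 1.496% in egg 4 (6 contacts), against 0.368% in the next egg. Groups of 3 cells, the zygotes among them, are not checked in this way.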

How the results depend on the processing

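Of 248 recomputed values, 195 stayed within the spread between cells (differences) or within 1.5 times (counts) and 53 moved further. The 195 include values that could not change, such as bins shared between zygotes when an egg was left out. Of 10 differences between zygotes and eggs, 141 recomputed values kept the sign in 121 cases. Values below are zygotes minus eggs; the cause of a change was not tested.

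For the trans share of far contacts the difference of 1.01 points was 3.91 without isolated contacts, 5.78 with at least 2 read pairs per contact and -1.36 with contacts merged per bin pair. The difference in slope of -0.0632 was 0.338 without recurring bins and 0.356 from 200 kb to 10 Mb. The difference in observed over expected contacts between pericentromeres, -0.265, was -0.539 with at least 2 read pairs, -0.818 without fragments of more than 4 partners, 0.151 without recurring bins, -1.94 with a window of 1 Mb and -0.955 when expected numbers came from length. Between arms (-0.0138) the same changes gave -0.0270, -0.0339, -0.00468, -0.00195 and 0.000528, with -0.0464 without isolated contacts, -0.0736 with a 4 Mb window and -0.000113 with the plain product of coverage. Between pericentromeres and arms (0.0528) it was 0.107 with at least 2 read pairs, 0.147 without fragments of more than 4 partners, 0.00852 without recurring bins, 0.111 without isolated contacts and 0.138 with a 4 Mb window. The share of long cis contacts across the centromere (-14.9 points) moved to -8.05 without recurring bins and -32.8 without isolated contacts, alternatives chosen after seeing the data, as was leaving out fragment pairs found in another cell.

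With at least 2 read pairs per contact, thinning went to 80 far contacts. Shared bins were then 22.5 between zygotes, 18.9 between a zygote and an egg and 14.3 between eggs. Bins in at least 2 zygotes numbered 41.7, in at least 3 eggs 17.4 and in both 12.6. Without thinning, eggs shared 47.5 bins per pair, 66 bins were in at least 3 eggs and 51 in both. With 500 kb bins eggs shared 43.7 per pair, and 71.2% of zygote bins were also in an egg, against 41.2% at 10 kb. Without recurring bins 10 pairs of bins recurred and 3 linked a zygote and an egg.

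Leaving out 1 cell at a time gave 16.6 (without egg 4) to 51.3 (without egg 3) bins shared between eggs. It gave 44.9 to 79.2 bins in at least 2 zygotes (lowest without zygote 1), 1.65 to 36.6 in at least 3 eggs and 1.65 to 29.8 in both (lowest without egg 4). The thresholds of 2 zygotes and 3 eggs were kept, so the rule became stricter with each cell left out. These numbers could thus not rise, and a fall was in part fixed in advance. From 3 to 11 chromosome pairs were apart, most without zygote 2. No paired analysis was possible because the result comes from no test and the numbers of the cells pair nothing in the labels. The slopes rest on 12 to 39 cis contacts per cell and the pericentromere ratios on 4 to 29 contacts.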

Other observations

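The cells with few contacts at recurring bins were egg 3, sperm 3 and shoot cell 3. Their trans contacts had an end there in 2.16%, 3.70% and 3.51% of cases, against 11.3% to 42.5% in the other sperm and 14.7% to 32.3% in the other shoot cells. Zygote 3 carries the same number and had 71.6%. The labels name no batch for any cell. Egg 3 also had the most read pairs of the 7 cells (11887), the fewest read pairs per contact (2.60) and the smallest share of far contacts seen in at least 2 read pairs (14.9%). That share was 36.0%, 31.2% and 29.8% in zygotes and 29.5%, 29.4% and 50.9% in eggs 1, 2 and 4.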
